A study of Mus musculus with 2 samples.

Results

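The type I interferon-stimulated genes are the genes that cells switch on when interferon alpha or beta reaches its receptor. The set described here holds 40 genes, named by symbol and without the Schlafen, guanylate-binding, immunity-related GTPase and Ifi200 families. All 40 were matched to a mouse Ensembl identifier among the 49585 of the deposited count table, and all 40 had at least 50 counts over both libraries. The lowest total was that of Ifit3b.

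Type I interferon signals through a receptor of IFNAR1 and IFNAR2 chains and the kinases JAK1 and TYK2. These phosphorylate STAT proteins, which join IRF9 to form the factor ISGF3. ISGF3 binds the interferon-stimulated response element in the promoters of target genes. The products of those genes sense foreign RNA, block viral entry, translation and budding, and tune further signalling. In tumours, monocytes, macrophages and dendritic cells are known to carry variable levels of this programme.

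Both groups were mice of the strain labelled NRP2f/flCSF1R-iCRE on a BL6 background, in which Nrp2 is floxed and Cre, made inducible, is under the Csf1r promoter of monocytes and macrophages. Mouse pancreatic cancer cells were placed under the skin, and once tumours could be felt the test animals were given tamoxifen every day to delete Nrp2. No tamoxifen is named for the control animals, so drug and deletion cannot be told apart. Tumours were taken at 15 days, CD11b cells were pulled out with magnetic beads, and each group was sequenced as 1 library made from the RNA of 3 animals together. The sources used here give no age of the animals, and CD11b also marks cells in which the Csf1r promoter may be weak, such as granulocytes. With 1 library per group no difference below has a replicate check, no p-value was made here, and each compares these 2 libraries only.

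The control library held 64153676 counts over 16257 genes and the knockout library 68554172 over 17566. Nrp2 was at 148 CPM (counts scaled to a common library size by the TMM method) in the control and 15.2 CPM in the knockout library, 9.71-fold lower, as the labels imply. Itgam, which encodes the selection antigen CD11b, was at 294 and 422 CPM, 1.43-fold higher in the knockout library. The macrophage marker gene Csf1r was at 2205 and 1842 CPM, 1.20-fold lower. Adgre1, another macrophage marker gene, which encodes F4/80, was at 711 and 518 CPM, 1.37-fold lower. Reads may not be independent of each other. Among genes found in a single library with more than 4 reads, the median was 47 reads for the control (867 genes) and 24 for the knockout library (2114 genes). Each interval below is a 95% exact Clopper-Pearson interval of the ratio on reads divided by those values, taken as reads per captured fragment. It covers counting error only and rests on that estimate, which the counts cannot check.

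The interferon-stimulated genes did not move as a block. In the knockout library 16 of 40 were above and 24 below their control level, and the median log2 ratio (knockout over control) was -0.19, against -0.01 over the 14420 genes with at least 50 counts. At least 2-fold higher were 2 members, Ifit3b and Rsad2, or 5%, beside 10.8% of all those genes. At least 2-fold lower were 3, Ifitm1, Phf11b and Ifi35, or 7.5%, beside 14.7%. Ifit1 at 1.99-fold higher and Ifi35 at 2.02-fold lower lay at the edge, so DESeq2 size factors gave 3 higher and 2 lower.

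The interval excluded 1 for 16 members. It lay above 1 for 5 of 40 (12.5%, beside 12.6% of all genes), namely Rsad2, Ifit1, Ifit3b, Oasl1 and Ifih1. It lay below 1 for 11 (27.5%, beside 11.1%), namely Ifitm1, Ifitm2, Ifitm3, Bst2, Phf11b, Ifi35, Ifi27l2a, Zbp1, Oasl2, Ddx58 and Dtx3l. With undivided reads the interval lay above 1 for 15 members and below 1 for 22, where 41.8% and 42.9% of all genes did the same.

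Most members were well read, so genes of like depth are a closer yardstick. Among the 9054 genes with at least 1000 counts the median log2 ratio was 0.04 and 53.3% had a ratio above 1, beside 49.4% of the genes with at least 50 counts. The 37 members at that depth had a median of -0.17, and 15 of them (40.5%) had a ratio above 1. At least 2-fold higher was 1 of the 37 (2.7%, beside 4.5%) and at least 2-fold lower were 3 (8.11%, beside 4.02%). The interval lay above 1 for 4 (10.8%, beside 18.7%) and below 1 for 11 (29.7%, beside 15.2%).

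**Figure D1:**
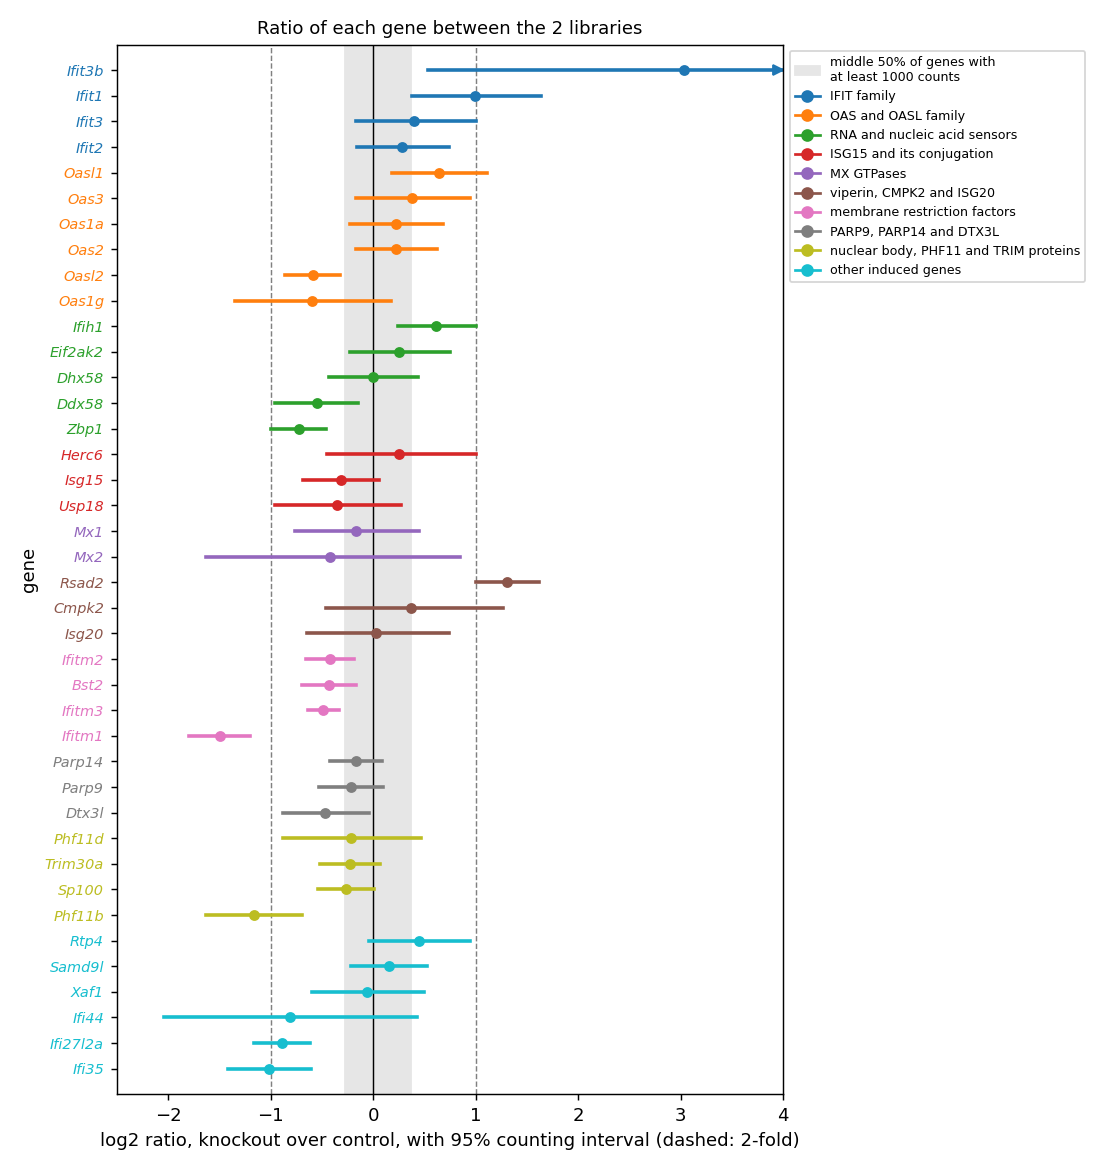
Log2 ratio of each of the 40 genes, knockout over control, with its 95% counting interval, ordered within role and coloured by role. The grey band is the middle 50% of genes with at least 1000 counts, dashed lines mark 2-fold, and an arrow marks an interval that runs off the axis. All 4 IFIT genes lie right of 0 and all 4 membrane restriction factors left of it.

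Promoters of the genes at both ends of this range are shown because response elements are what these genes share by their usual regulation. RefSeq promoter windows (GRCm38.p6, 250 bases before to 50 after a RefSeq start site, which can differ from the GENCODE gene start) were found for 30 of the 40 symbols. The response element core, taken as GAAA followed after any 2 bases by GAAA on either strand, was in a window of 16 of those 30 genes (53.3%), against 3.99% of all 27025 genes with a window. Counted by window it was in 17 of 35 and in 3.44% of 32851. The gamma-activated sequence, TTCNNNGAA, the same on both strands, was in 7 of 30 (23.3%) against 9.55%. Matches may overlap each other, and a match is a run of letters, not a measured site.

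The 130 bases before the start site are printed 5′ to 3′ on the gene's strand for the 2 highest and the 2 lowest ratios among members of at least 1000 counts. They are also printed for the Oas1a and Oas1g copies, whose ratios lay on opposite sides of 1 with intervals that include 1. Capitals mark the response element core. They come from chr12:26456453-26456582 (minus strand, Rsad2), chr19:34640759-34640888 (plus, Ifit1), chr7:140967946-140968075 (plus, Ifitm1), chr14:59341331-59341460 (minus, Phf11b), chr5:120907526-120907655 (minus, Oas1a) and chr5:120887614-120887743 (minus, Oas1g).
Rsad2: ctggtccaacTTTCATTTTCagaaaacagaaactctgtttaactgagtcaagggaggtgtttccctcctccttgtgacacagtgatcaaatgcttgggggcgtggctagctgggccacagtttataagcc
Ifit1: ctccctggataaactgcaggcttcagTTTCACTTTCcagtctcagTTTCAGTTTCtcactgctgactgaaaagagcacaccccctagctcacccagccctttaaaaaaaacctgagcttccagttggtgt
Ifitm1: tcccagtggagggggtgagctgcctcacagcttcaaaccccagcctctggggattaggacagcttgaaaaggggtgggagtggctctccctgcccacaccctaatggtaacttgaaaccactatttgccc
Phf11b: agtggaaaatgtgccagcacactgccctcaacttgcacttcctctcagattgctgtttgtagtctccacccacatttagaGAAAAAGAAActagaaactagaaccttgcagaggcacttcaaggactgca
Oas1a: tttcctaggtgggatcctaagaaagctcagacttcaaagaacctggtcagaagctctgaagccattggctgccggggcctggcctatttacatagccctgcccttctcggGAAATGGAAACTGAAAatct
Oas1g: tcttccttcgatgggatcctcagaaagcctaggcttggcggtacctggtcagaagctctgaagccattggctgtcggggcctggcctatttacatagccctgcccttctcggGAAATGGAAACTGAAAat

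Rsad2 has 1 match and Ifit1 has 2 in the printed stretch, Phf11b has 1 and Ifitm1 has 0. The Ifitm1 stretch lies inside the GENCODE gene, which starts at 140967221, so its 0 holds for that RefSeq start site only. Oas1a and Oas1g each have 2 overlapping matches. Their ratios differ in sign, but both intervals include 1 and 57.6% of the words of Oas1a are shared. Presence of the core did not sort the members by the sign of the ratio, counting also members whose interval includes 1. The 16 genes with it had a median log2 ratio of -0.003, 8 above and 8 below 0, from -1.16 for Phf11b to 3.03 for Ifit3b. The 14 with a window and no match had a median of -0.14, 6 above and 8 below, from -1.49 for Ifitm1 to 0.64 for Oasl1. At least 2-fold higher were 2 of the 16 and 0 of the 14, beside 10.8% of all genes. At least 2-fold lower were 1 of the 16 and 2 of the 14, beside 14.7%. The 10 members with no window had 2 above and 8 below 0.

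**Figure D2:**
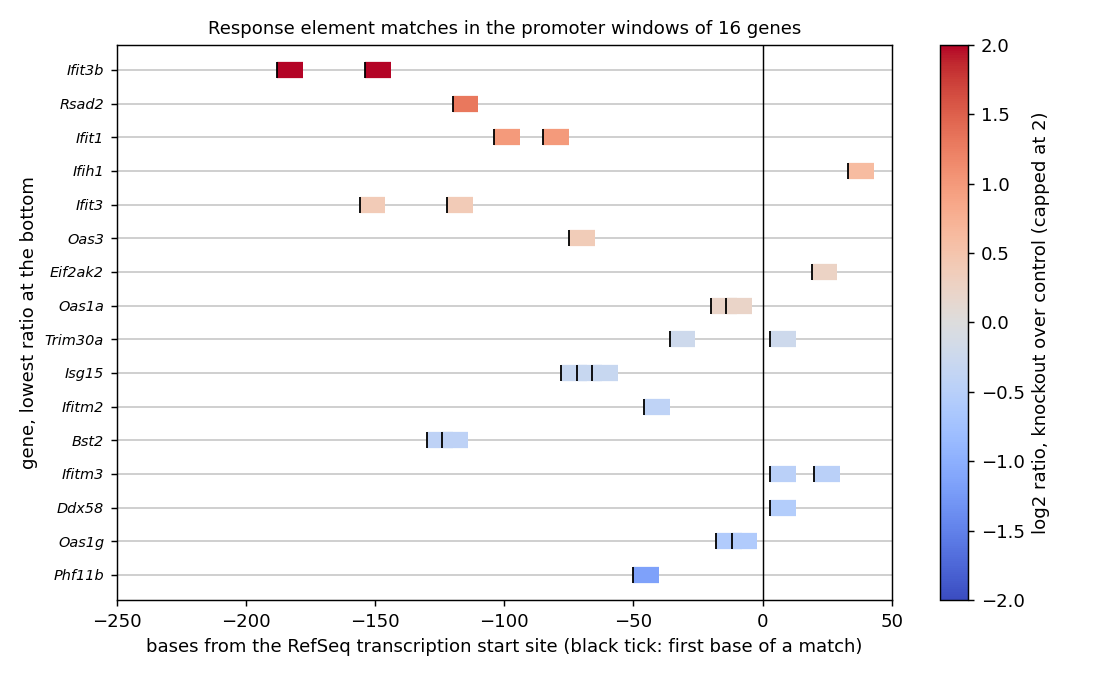
Position of each response element core in the promoter windows of the 16 genes that hold one, in bases from the RefSeq start site, coloured by log2 ratio (knockout over control). Matches of genes with several start sites (Trim30a) are drawn on 1 line. Genes with matches span the ratios from Ifit3b at the top to Phf11b at the bottom.

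The largest well-read difference upward was that of Rsad2, which encodes viperin, an enzyme that makes a chain-terminating nucleotide and slows viral replication. Rsad2 (ENSMUSG00000020641, GRCm38 chromosome 12, 26442746 to 26456452, minus strand) had 5210 control reads and 13138 knockout reads, at 79.4 and 196 CPM. It was 2.47-fold higher in the knockout library, with an interval of 2.01 to 3.06. Per kilobase of merged exon it stood 14th among the 40 genes in the control and 7th in the knockout library, at 18.3 and 45.2 CPM per kilobase. In the authors' deposited table its log2 fold change was 1.32 with a standard error of 0.583 and a p-value of 0.0236, and after adjustment 0.99987, from 1 library per arm.

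Cmpk2, a mitochondrial nucleotide kinase gene, lies 12751 bases from Rsad2 on the other strand and is known to be induced with it. Cmpk2 was at 12.3 and 15.9 CPM, 1.29-fold higher, and its interval of 0.726 to 2.41 includes 1 and overlaps that of Rsad2. Isg20, an exonuclease gene for single-stranded RNA, was at 20.0 and 20.4 CPM, and its small log2 ratio of 0.03 turned negative under upper-quartile and total-count scaling.

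The 4 IFIT genes, whose products bind viral RNA and hold back its translation, lie together on chromosome 19. All 4 were above their control level, as were 49.4% of genes with at least 50 counts. The summed level of the 4 genes was 90.4 CPM in the control and 134 in the knockout library. Ifit1 (ENSMUSG00000034459, GRCm38 chromosome 19, 34640871 to 34650009, plus strand) had 1325 and 2685 reads, 20.2 and 40.1 CPM, and was 1.99-fold higher (1.30 to 3.12). Ifit2 was at 43.7 and 53.3 CPM and Ifit3 at 25.6 and 33.9 CPM, 1.22-fold and 1.32-fold higher, with intervals of 0.90 to 1.67 and 0.891 to 2.0. Of this family only the Ifit1 and Ifit3b intervals excluded 1.

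Ifit3b, a copy of Ifit3, had the largest ratio of all members and the weakest support. It had 55 reads in the control library, fewer than the 141 reads that a count of 0 allows at 3 fragments of 47 reads, and 462 in the knockout library. Its ratio was 8.17 with an interval from 1.45 to 217. Of its 50-base transcript words, 45.0% also occur in transcripts of other genes, nearly all of them in Ifit3, so the counting could have moved reads between the 2 copies. The same holds for 51.2% of the words of Ifit3.

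The oligoadenylate synthetases make the messenger that activates RNase L, and the OASL proteins are their relatives. This family was split, with 4 of 6 genes above and 2 below the control level (median log2 ratio 0.22). Of genes with at least 1000 counts, as all 6 had, 53.3% were above it. The intervals of 4 of the 6 include 1. Oasl1, known in the mouse for restraining translation of Irf7, was at 38.5 and 59.9 CPM, 1.56-fold higher (1.14 to 2.16). Its neighbour Oasl2, 11005 bases away on chromosome 5, was at 148 and 98.5 CPM, 1.5-fold lower (1.25 to 1.81). The intervals of the 2 neighbours do not overlap.

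Oas2 and Oas3 were at 56.3 and 65.5 CPM and at 28.2 and 36.7 CPM, and both intervals include 1. Oas1a was at 42.8 and 49.9 CPM and Oas1g at 19.9 and 13.2 CPM, with intervals of 0.855 to 1.61 for a higher and 0.886 to 2.53 for a lower level in the knockout library. These 2 copies share 57.6% of the 50-base words of Oas1a, so how reads were divided between them is uncertain. None of the 4 differed beyond counting error.

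The nucleic acid sensors also went both ways. Ifih1, which encodes MDA5, a sensor of long double-stranded RNA, had 3686 and 5757 reads, 56.1 and 85.9 CPM, and was 1.53-fold higher (1.18 to 2.0). Ddx58, which encodes RIG-I, a sensor of RNA ends, had 4242 and 2954 reads, 64.6 and 44.1 CPM, and was 1.47-fold lower (1.10 to 1.94). Their intervals do not overlap, and the order of the 2 sensors was the opposite in the 2 libraries, also per kilobase (6.88 against 9.16 CPM per kilobase in the control, 10.5 against 6.26 in the knockout library).

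Zbp1, a sensor of Z-form nucleic acid that can start necroptosis, was at 154 and 93.2 CPM, 1.65-fold lower (1.37 to 1.99). Dhx58, which encodes LGP2, the modulator of both RNA sensors, was level at 48.6 and 48.5 CPM, and its direction depended on the scaling. Eif2ak2, which encodes the translation-blocking kinase PKR, was at 37.0 and 44.1 CPM, with an interval of 0.854 to 1.68 that includes 1.

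Isg15, the ubiquitin-like modifier, was at 72.0 CPM in the control and 58.0 in the knockout library, 1.24-fold lower with an interval of 0.958 to 1.60. Usp18, which removes ISG15 and damps the receptor, was at 27.7 and 21.7 CPM, and Herc6, the mouse ISG15 ligase, at 17.3 and 20.6 CPM. All 3 intervals include 1. Of the other enzymes of the pathway, the activating enzyme gene Uba7 was at 93.0 and 70.7 CPM, 1.31-fold lower (1.05 to 1.65). Ube2l6, the conjugating enzyme, was at 68.9 and 36.8 CPM, 1.87-fold lower (1.40 to 2.50).

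The MX GTPases trap viral nucleoproteins, although C57BL/6 mice are known to carry a defective Mx1 allele. Mx1 was at 27.4 and 24.4 CPM and Mx2 at 7.66 and 5.73 CPM. Both were below the control level with intervals that include 1, and Mx2 rested on 503 and 384 reads.

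All 4 membrane restriction factors were lower in the knockout library and all 4 intervals lay below 1, as did those of 11.1% of all genes and 15.2% of genes with at least 1000 counts. Their summed level was 935.5 CPM in the control and 620 CPM in the knockout library, out of 2977 and 2535 CPM for the 40 genes together. Ifitm1 (ENSMUSG00000025491, GRCm38 chromosome 7, 140967221 to 140969825, plus strand) belongs to the IFITM proteins, which block fusion of viruses with cell membranes. It had 10794 and 3914 reads, 164 and 58.4 CPM, and was 2.81-fold lower (2.29 to 3.46). In the authors' deposited table its log2 fold change was -1.48 with a standard error of 0.618, a p-value of 0.0168 and an adjusted p-value of 0.999, the lowest adjusted value of any member.

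The neighbours Ifitm2 and Ifitm3 were lower by less. Ifitm3 was the highest of the 40 genes per kilobase in both libraries, at 654 and 468 CPM per kilobase. It had 29125 and 21246 reads and was 1.40-fold lower (1.26 to 1.55). Ifitm2 was at 182 and 136 CPM, 1.34-fold lower (1.13 to 1.57), and 48.5% of its 50-base words occur in other annotated genes, most of them in an overlapping gene with 0 reads. The interval of Ifitm1 does not overlap those of its 2 neighbours. Bst2, or tetherin, which holds budding virus at the cell surface, was at 146 and 108 CPM, 1.35-fold lower (1.12 to 1.62).

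**Figure D3:**
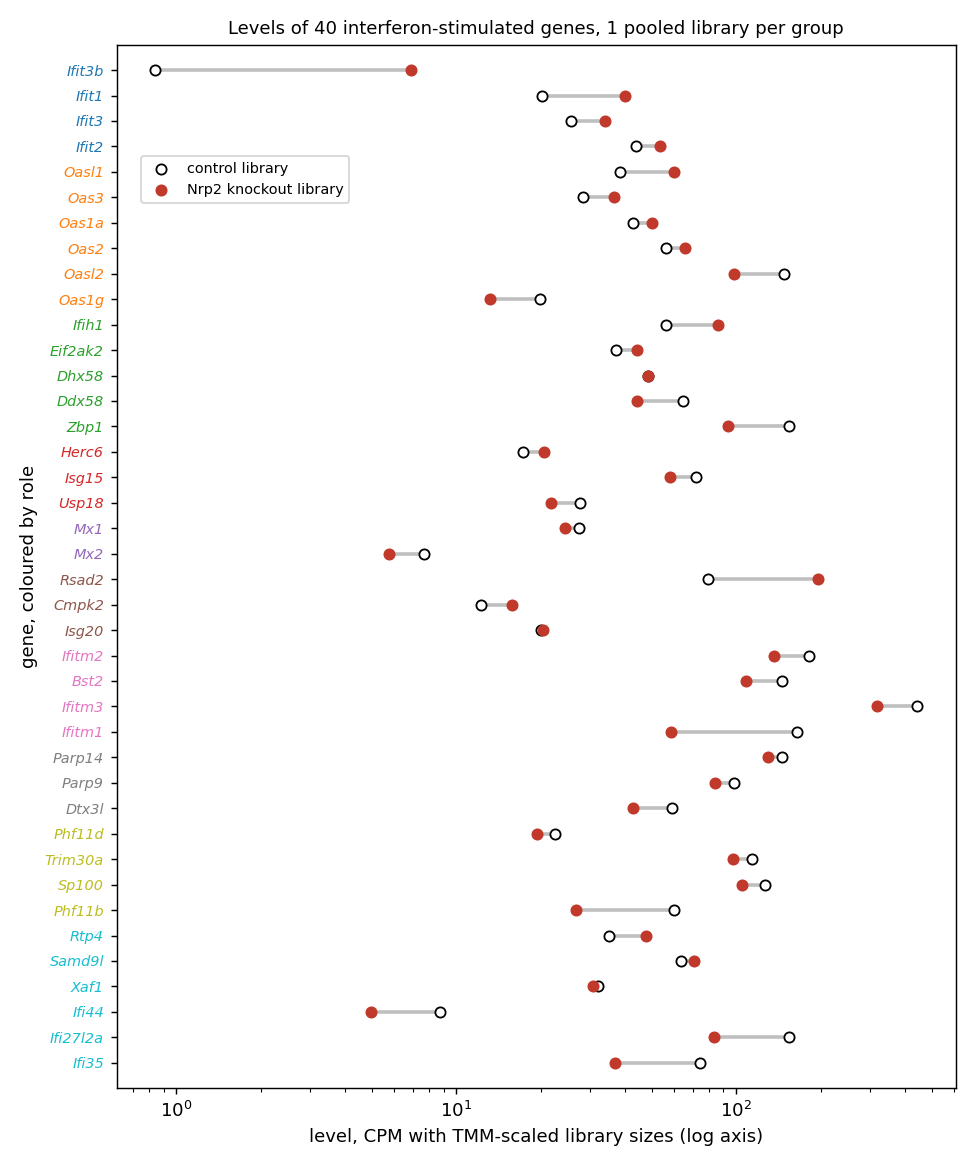
Level of each of the 40 genes in CPM (log axis) in the control (open) and Nrp2 knockout (red) library, grouped and coloured by role. Each symbol is 1 pooled library. Ifit3b and Rsad2 show the widest gaps toward the knockout library and Ifitm1 and Phf11b the widest toward the control among the well-read genes.

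Short transcripts were lower in the knockout library in general, which touches this group. Among genes with at least 1000 counts the median log2 ratio was higher with greater merged exon length, from -0.24 below 1000 bases (208 genes) to 0.24 from 8000 bases (1747 genes). The 5 members below 1000 bases, Ifitm2, Ifitm3, Bst2, Isg15 and Ifi27l2a, were all below their control level (median -0.43), as were 147 of those 208 genes. With a trend on transcript length and GC content subtracted, Ifitm3 went from -0.48 to -0.29 and Bst2 from -0.43 to -0.24. Ifitm2 went from -0.42 to -0.21 and Ifitm1 from -1.49 to -1.32. The intervals were not recomputed with the trend subtracted, so whether those of all the membrane restriction factors would still lie below 1 is not shown. The part of length in these differences was not tested further. Across the 40 members Spearman's rho of ratio and exon length was 0.24, and across the 9053 genes with a length it was 0.25, points that all share the same 2 libraries.

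**Figure D4:**
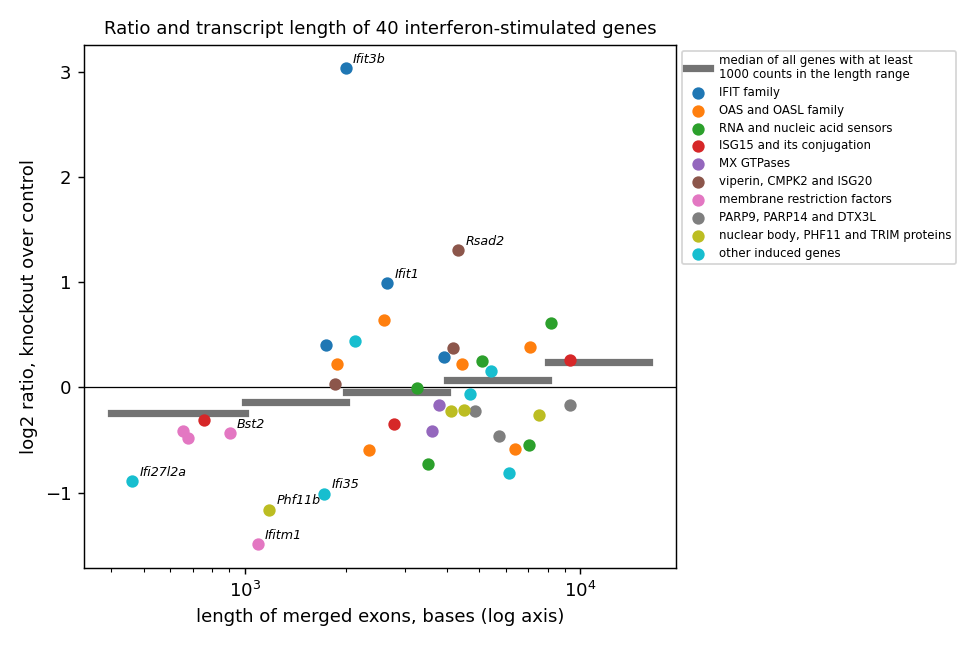
Log2 ratio (knockout over control) against merged exon length (log axis) for the 40 genes, coloured by role. Grey bars are the median of all genes with at least 1000 counts in 5 length ranges, the outer bars being open-ended. The 5 shortest genes lie below 0, as does the median of all short genes, while Ifitm1, Phf11b, Ifi35 and Ifi27l2a lie well below the bar of their range.

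Among nuclear proteins Phf11b, a PHD finger gene, had 3945 and 1799 reads, 60.1 and 26.9 CPM, and was 2.24-fold lower (1.62 to 3.10). It lies at GRCm38 chromosome 14, 59320964 to 59341351, minus strand (ENSMUSG00000091649), 6055 bases from Phf11d. Phf11d was at 22.6 and 19.5 CPM, with an interval of 0.724 to 1.83 for a lower level. Of the words of Phf11b 47.0% occur in other genes, 26.0% in Phf11a, so its count is uncertain. Sp100, a nuclear body protein gene, and Trim30a, a TRIM family gene, were at 126 and 105 CPM and at 114 and 97.1 CPM, both below the control level with intervals that include 1.

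PARP9 and DTX3L form an ADP-ribosylating ubiquitin ligase, and PARP14 is a related transferase. All 3 genes lie on chromosome 16 and all were below the control level, as were 46.7% of genes with at least 1000 counts. Dtx3l was at 58.9 and 42.7 CPM, 1.38-fold lower (1.03 to 1.84). Parp9 was at 98.0 and 84.2 CPM and Parp14 at 145 and 129 CPM, with intervals that include 1. Dtx3l and Parp9 run on opposite strands and share 458 exon bases, and the sources used here do not say whether counting used the strand.

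Of the remaining members, Ifi35, whose product pairs with NMI, had 4880 and 2470 reads, 74.3 and 36.9 CPM, and was 2.02-fold lower (1.52 to 2.67). Ifi27l2a, a gene of a small hydrophobic protein, had 10164 and 5597 reads, 155 and 83.6 CPM, and was 1.85-fold lower (1.53 to 2.24). It ranked 2 per kilobase in the control library, at 334 CPM per kilobase, and ranked 3 in the knockout library, at 180.5. Rtp4, a receptor chaperone gene, was at 35.0 and 47.7 CPM, Samd9l at 63.6 and 70.7, Xaf1 at 32.1 and 30.8 and Ifi44 at 8.71 and 4.96 CPM, and all 4 intervals include 1.

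Upstream of these genes, transcripts of the ligands were scarce. Ifna1, Ifna2, Ifna4 and Ifna5 had 0 reads in both libraries, which allows up to 141 reads in the control and 72 in the knockout library. Ifnb1 had 9 and 124 reads, and its interval, from 0.426 upward, includes 1. The receptor genes were level: Ifnar1 was at 210 and 198 CPM and Ifnar2 at 103 and 103 CPM, with ratios of 0.941 and 1.01.

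Of the kinases and transcription factors that carry the signal, Tyk2 was at 101 and 77.1 CPM, 1.31-fold lower (1.05 to 1.62). Jak1 and Jak2 were at 268 and 294 CPM and at 199 and 182 CPM, with intervals that include 1. Stat2, an ISGF3 subunit gene, was at 72.5 and 90.9 CPM (ratio interval 0.992 to 1.59). Irf9, the DNA-binding subunit gene, named after its value was seen, was at 85.9 and 65.8 CPM, 1.31-fold lower (1.03 to 1.65).

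Among 7 interferon regulatory factors, Irf7, which drives interferon alpha genes and is itself induced by interferon, was the 1 with a higher level. Irf7 was at 114 and 201 CPM, 1.77-fold higher (1.48 to 2.13). Irf8, a lineage factor of monocytes and dendritic cells, was at 324 and 252 CPM, 1.29-fold lower (1.14 to 1.45), and Irf1 and Irf5 had intervals that include 1. Irf3, named after its value was seen, was at 56.1 and 31.4 CPM, 1.79-fold lower (1.30 to 2.45). No member of this list passed 2-fold. Of genes with at least 1000 counts, as all of these had, 4.5% passed it upward and 4.02% downward.

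Among the 11 sensing and adaptor genes measured, 1 passed 2-fold upward (9.09%, beside 10.8% of all genes) and 3 passed it downward (27.3%, beside 14.7%). All 11 had at least 1000 counts, and of genes at that depth 4.5% passed 2-fold upward and 4.02% downward. The median log2 ratio of the 11 was -0.53. Tlr7, the endosomal sensor of single-stranded RNA, was at 83.1 and 231 CPM, 2.78-fold higher (2.28 to 3.42). Tmem173, which encodes STING, the adaptor of cytosolic DNA sensing, was at 221 and 107 CPM, 2.06-fold lower (1.75 to 2.42). Trim25, a ligase that activates RIG-I, was 1.47-fold higher (1.30 to 1.68), and the kinase gene Ikbke 1.52-fold lower (1.26 to 1.85). The DNA sensor Cgas, named after its value was seen, was at 17.1 and 4.58 CPM, 3.73-fold lower (1.82 to 8.03). The remaining gene past 2-fold lower, Tlr3, named likewise, was at 23.0 and 9.55 CPM, 2.41-fold lower (1.40 to 4.19). The kinase gene Tbk1, named likewise, went the other way, at 64.0 and 117 CPM, 1.84-fold higher (1.45 to 2.35).

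Of the genes listed here as weighted toward interferon gamma, 11 of 11 measured had a ratio below 1, as did 50.6% of all genes. Their median log2 ratio was -0.71. Which interferon acts on these genes in these cells was not tested. Past 2-fold lower were 3 (27.3%, beside 14.7% of all genes), and 9 intervals lay below 1 (81.8%, beside 11.1%). All 11 had at least 1000 counts. Of genes at that depth 46.7% had a ratio below 1, 4.02% were at least 2-fold lower and 15.2% had an interval below 1. Cxcl9, a T cell attracting chemokine, was at 834 and 472 CPM, 1.77-fold lower (1.63 to 1.91). Gbp2 was 1.64-fold lower (1.51 to 1.78) and Irgm1 1.24-fold lower (1.04 to 1.47), while Nos2, the inducible nitric oxide synthase gene, was at 219 and 215 CPM. Ifng itself had 558 and 267 reads, with a ratio interval that includes 1 (2.13-fold lower, 0.861 to 5.32). Its receptor genes Ifngr1 and Ifngr2 were 1.42-fold higher (1.26 to 1.60) and 1.21-fold lower (1.02 to 1.43). Of the type III system, Ifnl2 and Ifnl3 had 0 reads in both libraries, and Il10rb was at 132 and 125 CPM. The receptor gene Ifnlr1 had 0 and 119 reads, and its ratio interval, from 0.453 upward, includes 1.

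The 6 feedback inhibitors had a median log2 ratio of -0.15, and none of these 6 passed 2-fold. Of all genes 10.8% were past it upward and 14.7% downward. All 6 had at least 1000 counts, and of genes at that depth 4.5% were past it upward and 4.02% downward. Socs3 was at 1012 and 1106 CPM and the phosphatase gene Ptpn6 at 363 and 214 CPM, 1.70-fold lower (1.50 to 1.91). Ptpn2, another phosphatase gene, and Pias1, a gene of an inhibitor of STAT proteins, had 3645 and 2972 reads and 3102 and 3235 reads, with intervals that include 1.

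A further list of interferon-stimulated genes, which shares Stat2, Irf7, Uba7 and Ube2l6 with the lists above, held genes on both sides. Of 50 genes past 50 counts, 26 had a ratio above and 24 below 1, and 5 (10%, beside 10.8% of all genes) passed 2-fold upward and 1 (2%, beside 14.7%) downward. Their median log2 ratio of 0.01 turned negative under upper-quartile scaling (-0.05), total-count scaling (-0.06), a minimum of 1000 counts (-0.03) and with the length trend subtracted (-0.09). Intervals lay above 1 for 6 (12%, beside 12.6%) and below 1 for 15 (30%, beside 11.1%). Of genes with at least 1000 counts, a depth that not all of the 50 reached, 4.5% passed 2-fold upward and 4.02% downward. At that depth 18.7% of all genes had an interval above 1 and 15.2% below 1. Of the genes past 2-fold upward, Oas1b, Ifit1bl2, Apol9b and Phf11c had 49, 46, 28 and 55 control reads. Those counts are under the 141 reads that a count of 0 allows, and the intervals of these genes include 1. The other gene was Slfn8, 2.14-fold higher (1.45 to 3.23). Ly6e, a membrane protein gene, was 1.89-fold lower, Samhd1, a nucleotide phosphohydrolase gene, 1.34-fold lower, Psmb8, an immunoproteasome subunit gene, 1.69-fold lower and Lgals3bp 1.63-fold higher.

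**Figure D5:**
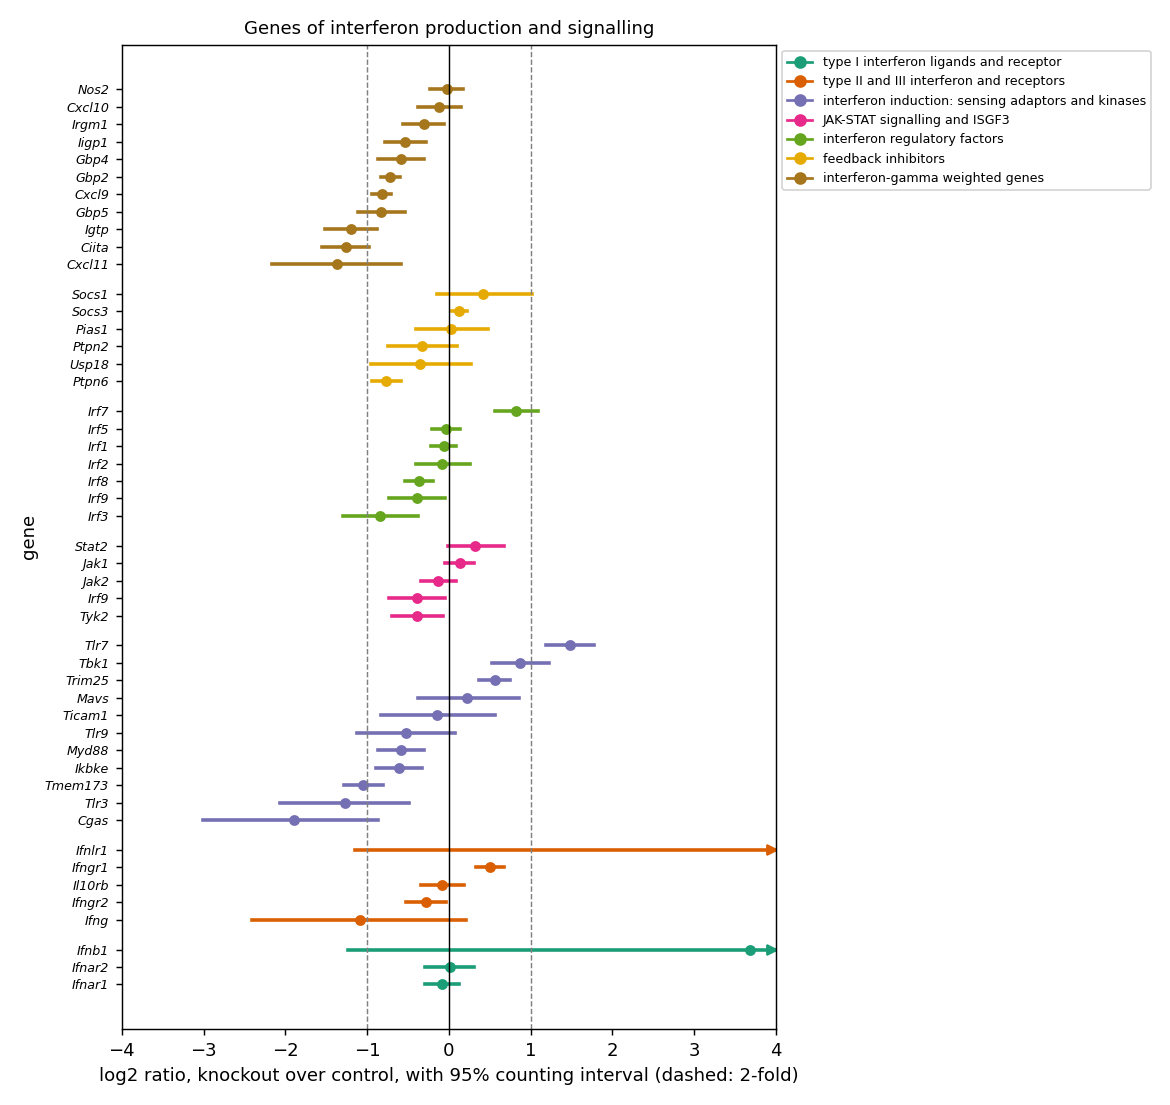
Log2 ratio (knockout over control) with 95% counting interval for genes of interferon production, signalling and feedback and for interferon gamma weighted genes, those with at least 50 counts. Dashed lines mark 2-fold, arrows mark intervals that run off the axis, and Ifnlr1, at 0 reads in the control library, has no point. All interferon gamma weighted genes lie left of 0, whereas Tlr7 and Irf7 lie to the right.

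Levels of markers of other cell types differed between the libraries, and in bulk RNA fewer cells of a type and less RNA per cell cannot be told apart. Beside 14.7% of all genes at least 2-fold lower and 10.8% higher, T cell markers were at least 2-fold lower for 11 of 12 genes (summed level 212 and 70.0 CPM, none at 0), NK cell markers for 6 of 8 (114 and 39.8 CPM, none at 0) and B cell markers for 7 of 8 (209 and 22.3 CPM, Pax5 at 0 in the knockout library). Conventional dendritic cell markers were at least 2-fold lower for 8 of 10 (469 and 160.5 CPM, Xcr1 at 0 in the knockout library). Plasmacytoid dendritic cell markers, which include Bst2 and Irf7, summed to 643 and 626 CPM with 1 of 10 past 2-fold each way. Monocyte markers summed to 2384 and 7652 CPM, of which Chil3 made 338 and 6067, and past 2-fold 3 of 10 were higher and 5 lower. Neutrophil markers summed to 1403 and 1410 CPM, with Ly6g and Camp at 0 in the control library. Of 9 measured, 3 were at least 2-fold higher, among them Ngp with 2 and 1033 reads, and 1 lower, Mmp9 at 389 and 128 CPM. Macrophage markers summed to 26587 and 33284 CPM, of which Apoe made 12399 and 18685, with 5 of 10 markers below their control level and a median log2 ratio of -0.03. Fibroblast, endothelial and epithelial tumour cell markers summed to lower levels in the knockout library, at 326 and 195 CPM, 86.2 and 21.9 CPM and 194 and 129 CPM. The part of these shifts in the levels of the interferon-stimulated genes was not tested.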

How the data were processed

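Per the submitters' processing notes, reads were processed with cutadapt, HISAT2, featureCounts and the GRCm38 genome. The sources used here give no versions, options or annotation release. The deposited counts are whole numbers of reads for each Ensembl gene. The column headers carry the label R1, which may stand for read 1 but is not explained. The authors also deposited a comparison table with a log2 fold change and its standard error, a score that is their quotient, p-values and a normalised signal per library. The header of that table has the column names DESeq2 writes. Symbols, coordinates and exon lengths came from GENCODE M21 (GRCm38), which matched 49326 of 49585 identifiers.

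Libraries were scaled with TMM (edgeR 4.0.16, R 4.3.3). Log2 ratios used a prior of 0.5 counts and a minimum of 50 counts summed over the 2 libraries. With 1 library per group no test was run, and genes were described by ratio, a 2-fold size rule and exact conditional Clopper-Pearson intervals, whose calculation was tested on simulated data. Intervals and the limits for a count of 0 cover counting error only. Whether PCR duplicates were removed is not stated. Members, lists and the rule for named genes (all 40 members, the 4 most counted genes of each pathway list, and 2 of each marker list, for which sums and genes at 0 are given instead) were chosen with earlier results of these data known. The pathway lists are the ligands and receptors, JAK-STAT, regulatory factor, sensing, feedback, ISG15 ligation, interferon gamma weighted and further interferon-stimulated genes. From these lists 1 gene is not reported here. Shared words of 50 bases were counted in GENCODE transcripts on both strands.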

Additional observations from a re-analysis of the deposited data

How the results depend on the processing

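Scaling with DESeq2 1.42.0 size factors, upper-quartile factors or total counts moved the median log2 ratio of all genes by 0.01, -0.06 and -0.07, and the median of the 40 interferon-stimulated genes stayed between -0.26 and -0.18, with 14 intervals below 1 under total counts. A prior count of 5, or no filter on low counts, gave the same numbers of members past 2-fold, 2 higher and 3 lower. With at least 1000 counts 1 member was at least 2-fold higher, because Ifit3b falls under that limit. Intervals on undivided counts lay above 1 for 15 and below 1 for 22 members. Chosen after seeing the data, leaving out the 10 members that share over 10% of their 50-base words with other genes left 1 at least 2-fold higher, 1 at least 2-fold lower and 7 with an interval below 1, since Ifit3b, Phf11b, Ifi35 and the membrane restriction factors Ifitm2 and Ifitm3 are among them. Subtracting a trend on length and GC content, also chosen after seeing the data, gave 2 higher and 2 lower and a median of -0.21. The sign of Dhx58 turned under DESeq2 factors, in the authors' deposited table and with the trend subtracted, that of Isg20 under upper-quartile and total-count scaling, and that of Samd9l with the trend subtracted. No paired analysis was possible because each group has 1 pooled library, and for the same reason no library could be left out.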
